A study of Mus musculus with 17 samples.

Results

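The type I interferon genes of mouse plasmacytoid dendritic cells are described here across 6 culture conditions. The members are Ifna2, Ifna4, Ifna5, Ifna9, Ifna11, Ifna12, Ifna13, Ifna14, Ifnab and Ifnb1, taken by gene symbol from the platform annotation. All 10 genes were found, with 1 probe set each, among 21354 probe sets that carry exactly 1 symbol and 24680 probe sets in all. Total RNA was hybridised to 17 single-channel Affymetrix arrays. The cells came from bone marrow of C57BL/6 mice and were sorted by flow cytometry as CD11c-intermediate, B220+ and SiglecH+ after magnetic removal of other cells. They were cultured with CpG-A + LIF, CpG-A, CpG-B + LIF, CpG-B or LIF (3 arrays each), or in medium (2 arrays, replicates 1 and 3). LIF (leukaemia inhibitory factor) was used at 10 ng/ml for 20 to 24 h in all, starting 1 h before CpG where the agents were combined. CpG-A (2216) and CpG-B (1826) were used at 6 µg/ml for 19 to 23 h per the sample labels. The labels do not say whether replicates came from separate mice or cultures, so p-values measure the spread between arrays, which may be technical.

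Plasmacytoid dendritic cells sense viral and synthetic DNA through TLR9 in endosomes. TLR9 passes the signal through MyD88 to the transcription factor IRF7, which switches on the Ifna genes and Ifnb1, and the secreted interferons act through the receptor IFNAR on the transcription factor complex ISGF3, which holds STAT2 and IRF9, to raise antiviral genes. CpG-A oligonucleotides are known for strong interferon induction in these cells, and CpG-B for maturation and inflammatory cytokines. LIF is a cytokine of the IL-6 family that acts through gp130 and STAT3. The Ifna genes are closely related copies with a common receptor, Ifnb1 encodes interferon beta, and Ifnab is a further member of the alpha group.

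In the RefSeq gene order all 10 genes lie in 1 cluster on mouse chromosome 4, from Ifnb1 at one end to Ifna4 at the other. Their promoters are shown because interferon regulatory factors are known to bind repeats of GAAA in such promoters. All 10 matched the RefSeq promoter table (GRCm38.p6, 250 bases before to 50 bases after each annotated start). The 250 bases before the start are printed 5′ to 3′ for 4 genes. Ifna12 is the member with the smallest p when LIF was added to CpG-A (chr4:88603377-88603626, minus strand), and Ifna4 has the interferon response element core, which is GAAA, any bases NN, and GAAA again, more than once (chr4:88841566-88841815, plus strand). Ifna13 (chr4:88644460-88644709, minus strand) and Ifnb1 (chr4:88522795-88523044, minus strand) are the members without that core. Capitals mark matches to that core or to AANNGAAA, the shorter site of interferon regulatory factors.
Ifna12: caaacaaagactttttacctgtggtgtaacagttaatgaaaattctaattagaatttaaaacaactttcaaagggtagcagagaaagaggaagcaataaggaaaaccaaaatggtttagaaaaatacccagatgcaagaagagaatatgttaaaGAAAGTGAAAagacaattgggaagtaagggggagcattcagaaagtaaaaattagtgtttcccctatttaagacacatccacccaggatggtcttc
Ifna4: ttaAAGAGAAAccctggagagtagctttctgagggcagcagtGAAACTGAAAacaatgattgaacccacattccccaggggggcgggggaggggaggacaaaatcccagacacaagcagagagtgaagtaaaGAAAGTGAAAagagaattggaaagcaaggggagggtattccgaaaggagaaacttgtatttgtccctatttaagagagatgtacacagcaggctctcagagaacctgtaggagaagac
Ifna13: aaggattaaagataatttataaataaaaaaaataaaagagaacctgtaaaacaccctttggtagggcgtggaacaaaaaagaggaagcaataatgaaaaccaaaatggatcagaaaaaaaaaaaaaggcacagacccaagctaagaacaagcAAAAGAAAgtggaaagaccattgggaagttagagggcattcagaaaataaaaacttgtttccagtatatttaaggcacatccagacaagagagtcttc
Ifnb1: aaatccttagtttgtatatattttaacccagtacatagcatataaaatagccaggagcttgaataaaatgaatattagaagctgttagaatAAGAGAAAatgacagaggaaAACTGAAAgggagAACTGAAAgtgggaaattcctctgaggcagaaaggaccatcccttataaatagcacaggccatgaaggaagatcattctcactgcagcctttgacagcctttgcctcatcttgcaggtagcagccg

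Over the whole windows and on both strands, the core was found in 8 of the 10 members and in 3.44% of all 32851 promoters of the table. AANNGAAA, which is contained in every match to the core, was found in 10 of 10 members, with 1 to 3 matches each, and in 23.9% of all promoters. The NF-kB-like pattern (GGG, NNNNN and CC in a row) was found in Ifna9, Ifna11 and Ifnb1 and in 50.8% of all promoters. The match in Ifna9 lies after the annotated start. Ifna13 and Ifnb1 held TATAAA, as did 13.6% of all promoters. A match describes letters in the window and is not a binding site. Between the promoters of the 9 alpha-group genes (Ifnab included) identity was 44.1% to 83.8% over 36 pairs, and between Ifnb1 and those genes it was 47.4% to 51.3%. The windows are not placed alike in all genes. In Ifna2, Ifna5, Ifna9 and Ifna14 an ATG stands directly at the annotated start, while Ifna12 and Ifna13 hold none between the start and the window end. Windows were aligned end to end, so shifted starts can lower the identity, and by how much was not tested.

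**Figure D1:**
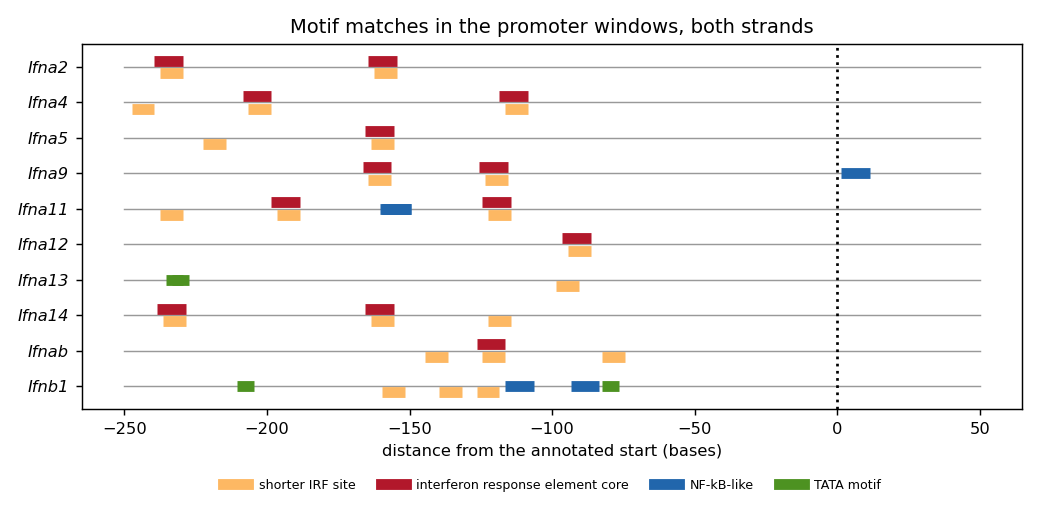
Positions of motif matches in the promoter windows of the 10 genes (horizontal axis, bases from the annotated start; dotted line, the start). Red bars mark the interferon response element core, orange bars the shorter site AANNGAAA, blue bars the NF-kB-like pattern and green bars TATAAA. Red bars are present in 8 genes and absent from Ifna13 and Ifnb1.

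The deposited intensities are on a linear scale, and their decimal mark has been lost. Each value is therefore given as its leading value, a number between 1 and 10 with an unknown power of 10, and a leading value just under 10 lies next to one just over 1. Differences between groups are given on the log2 scale as the nearest reading, which lies within 1.66 of 0 because 10-fold equals 3.32 on that scale. The other reading is 3.32 away on the opposite side, and readings farther out would look the same. A difference is called when its limma adjusted p is under 0.05. A call means that the groups differ by something other than a whole power of 10, and a missing call does not show that a gene is unchanged. Nearest readings over 1.11 in size (2.15-fold) have no settled direction, and both readings are given. Below that limit the other reading is a change of at least 4.64-fold the opposite way. For genes that can change strongly the sign of the nearest reading is therefore not settled either, and the other reading is printed beside each call. Where called genes are counted or described as higher or lower, this is by the nearest reading alone. Levels, and the presence or absence of cell type markers, cannot be read from such values, so the labelled cell type could not be checked by its markers.

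With LIF added to CpG-A, the nearest readings of most interferon genes were larger in size than those of nearly all other probe sets. In 9 of the 10 members the difference between CpG-A + LIF and CpG-A was past the direction limit, against 40 of 21354 probe sets in all (0.187%). For these 9 genes the readings were either 2.24- to 3.19-fold lower or 3.14- to 4.45-fold higher in CpG-A + LIF (log2 -1.67 to -1.17, or 1.65 to 2.16). That count was 4 without CpG-A + LIF replicate 2, with Ifna2 at -0.98, Ifna9 at -0.82 and Ifnb1 at -0.89. It was 7 without CpG-A + LIF replicate 3, with Ifna4 at -0.07, and 8 without CpG-A replicate 1. With all arrays unfolded at the widest gap between them it was 5, with Ifna2 at 0.82, Ifna4 at -0.51, Ifna5 at 0.60 and Ifna11 at -0.57. With all arrays and the shortest way, the median size of the nearest reading was 1.38 over the 10 members and 0.113 over all probe sets. Ifna12 was called, and it was the only call among all 21354 probe sets (0.00468%). In 9 of 10 members the unadjusted p was under 0.05, against 6.06% of all probe sets; the count was 5 at the widest gap and 7 without CpG-A + LIF replicate 3. Because RNA came from whole cultures, a change in the number of cells of a type and a change in RNA per cell cannot be told apart.

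Ifna12, an alpha interferon gene, had leading values of 8.10, 7.82 and 9.28 in CpG-A + LIF, against 3.71, 1.88 and 2.25 in CpG-A. The 3 CpG-A + LIF arrays lay close together and apart from the CpG-A arrays, whose replicate 1 stood above the others. The difference was -1.58 ± 0.23 or 1.74 (SE, n = 3 each; limma adjusted p = 0.0479). That call rested on most of the arrays: it was lost without any 1 array of CpG-A + LIF, without CpG-A replicate 1 or 3, and in 15 of 24 alternative settings in all, with adjusted p between 0.00364 and 0.219.

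Ifnab had leading values of 7.78, 5.70 and 7.85 in CpG-A + LIF, against 1.59, 1.46 and 2.27 in CpG-A. The groups did not overlap, and the nearest reading was -1.31 ± 0.23, with 2.02 as the other (adjusted p = 0.0861). Ifnb1, the interferon beta gene that is often the first to be induced, had leading values of 8.92, 4.17 and 7.83 in CpG-A + LIF, against 1.68, 1.29 and 1.71 in CpG-A. Here replicate 2 of CpG-A + LIF stood apart from its group, and the 3 CpG-A arrays lay close together. Its nearest reading was -1.22 ± 0.24, with 2.10 as the other (adjusted p = 0.121).

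Ifna4, described in mouse cells as an early alpha gene that needs less IRF7 than the others, had leading values of 4.34, 1.25 and 3.01 in CpG-A + LIF, against 9.07, 6.23 and 8.26 in CpG-A. Ifna5 had 4.24, 1.68 and 2.28 in CpG-A + LIF, against 5.60, 5.66 and 1.46 in CpG-A. Ifna11 had 4.76, 1.15 and 2.57 in CpG-A + LIF, against 7.20, 6.92 and 9.16 in CpG-A. In all 3 genes the arrays of the groups were not interleaved, and the CpG-A + LIF arrays were far apart from each other. The nearest readings were -1.61 ± 0.32 for Ifna4 (or 1.71), -1.61 ± 0.33 for Ifna5 (or 1.71) and 1.65 ± 0.34 for Ifna11 (or -1.67), with adjusted p of 0.134, 0.144 and 0.144. The nearest reading of Ifna11 has the opposite sign to that of the other genes, yet its pair of readings is nearly the same as theirs, so the sign sets nothing apart.

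Ifna2 had leading values of 7.33, 3.08 and 7.38 in CpG-A + LIF, against 1.76, 1.04 and 1.67 in CpG-A. Ifna9 had 2.23, 7.99 and 1.18 in CpG-A + LIF, against 3.63, 2.19 and 2.99 in CpG-A, and Ifna14 had 2.81, 1.04 and 1.29 in CpG-A + LIF, against 5.01, 2.79 and 4.63 in CpG-A. Ifna2 kept its groups apart, whereas the arrays of Ifna9 and Ifna14 were interleaved. Their nearest readings were -1.40 ± 0.33 for Ifna2 (or 1.92), -1.17 ± 0.29 for Ifna9 (or 2.16) and -1.37 ± 0.29 for Ifna14 (or 1.96), with adjusted p of 0.276, 0.299 and 0.175.

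Ifna13 was the member whose nearest reading was small. Its leading values were 1.10, 7.42 and 1.37 in CpG-A + LIF, against 1.25, 9.80 and 1.31 in CpG-A. Replicate 2 was the lowest in each group, and the groups overlapped. The nearest reading was -0.17 ± 0.27 (adjusted p = 0.976), and a change of nearly 10-fold would read the same. In all, 7 of 10 members had groups that were not interleaved, against 30.4% of all probe sets.

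**Figure D2:**
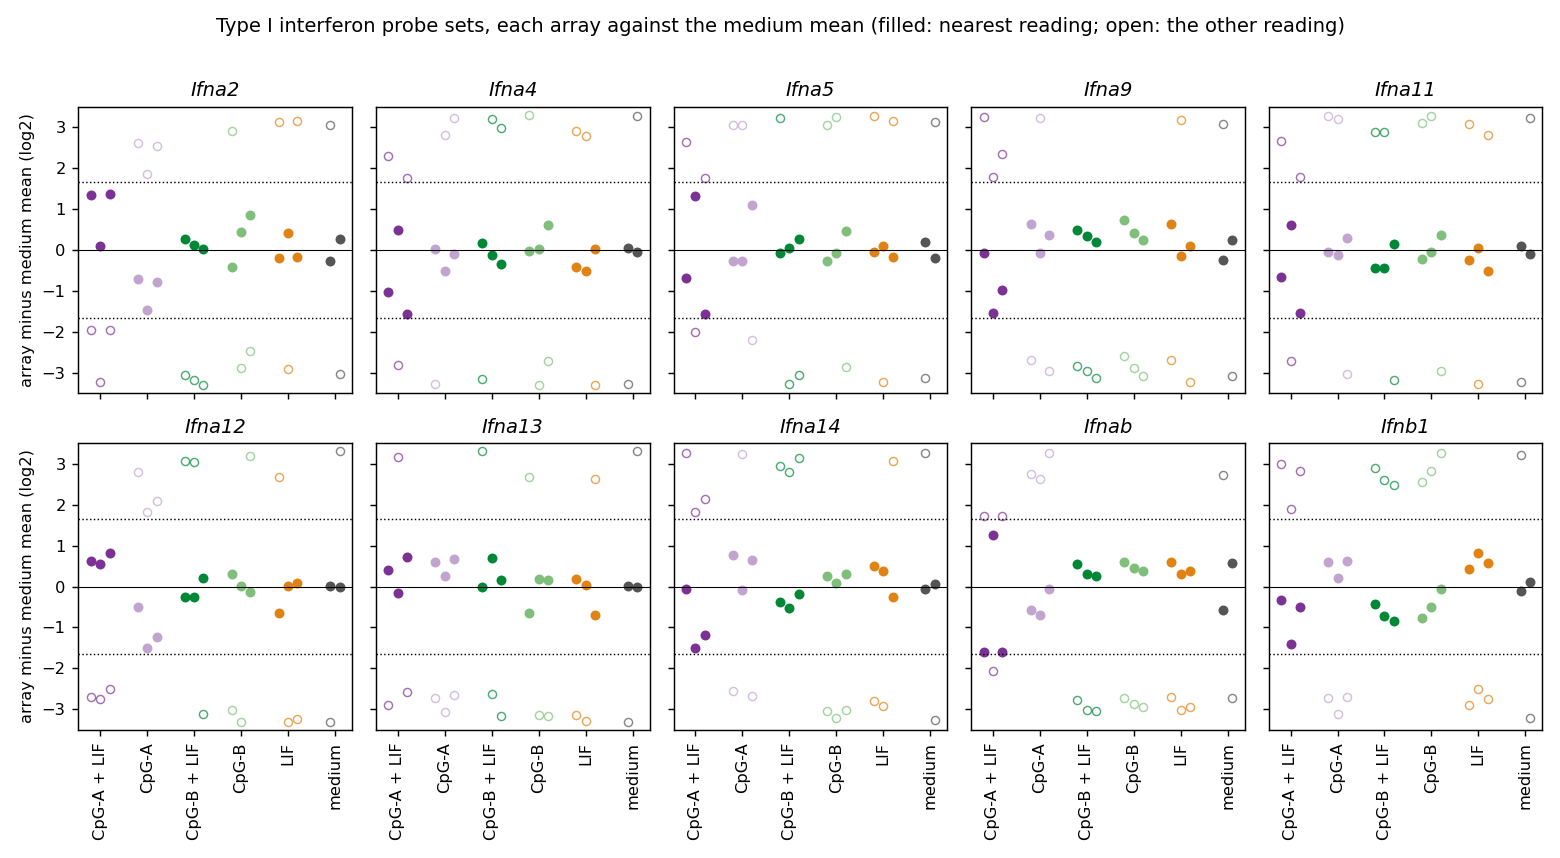
Each array of each gene, as its log2 difference from the mean of the medium arrays (vertical axis), for the 6 groups from CpG-A + LIF to medium (horizontal axis). Filled points are nearest readings, open points are the other readings, and dotted lines mark the edge of the nearest readings at 1.66. Points of CpG-A + LIF (dark purple) are spread more widely than those of the CpG-B groups (green) in most panels. Part of this comes from the edge, where neighbouring arrays can be drawn on opposite sides. The CpG-A + LIF arrays of Ifnab are drawn at -1.61, 1.27 and -1.59, yet they span only 0.461.

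The members were also among the probe sets with the smallest p in the comparison of CpG-A + LIF with CpG-A. Of the 25 smallest p, 7 belonged to members. Ifna12 ranked 1, Ifnab 7, Ifnb1 12, Ifna4 15, Ifna5 19, Ifna11 20 and Ifna14 24 of 21354, while Ifna2 ranked 43, Ifna9 59 and Ifna13 11646. Probe sets of related genes can share signal, so these ranks are not 10 independent observations. Besides the 9 members, 31 other probe sets had a reading past the limit.

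**Figure D3:**
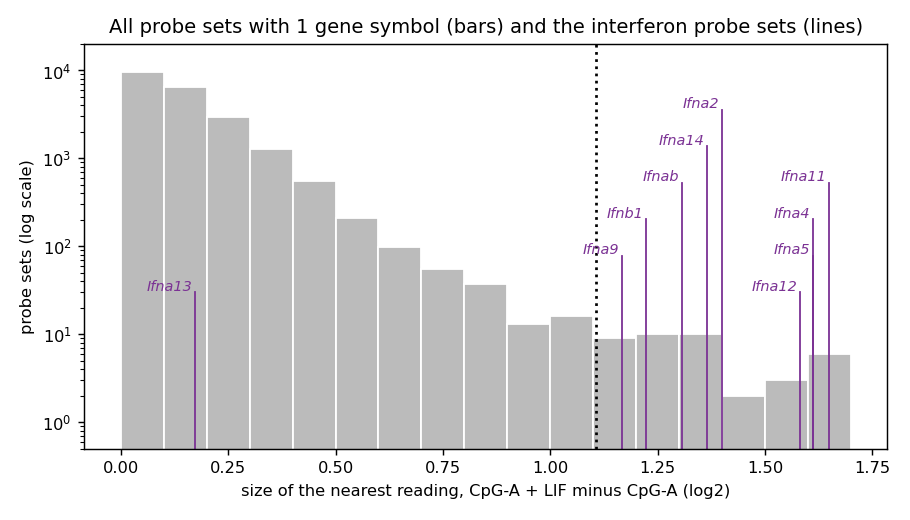
Sizes of the nearest reading for CpG-A + LIF minus CpG-A (horizontal axis, log2) over 21354 probe sets with 1 symbol (grey bars, number of probe sets on a log axis). Purple lines mark the 10 interferon probe sets; their heights have no meaning. The dotted line is the direction limit at 1.11, and 9 of the 10 lines lie to its right.

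With CpG-B the addition of LIF gave no such readings. In CpG-B + LIF against CpG-B, 0 of 10 members were called by limma (0.0609% of all probe sets) and 0 had an unadjusted p under 0.05 (7.58% of all). Their nearest readings were 0.03 to 0.58 in size. Ifnb1 had leading values of 8.32, 6.77 and 6.24 in CpG-B + LIF, against 6.53, 7.83 and 1.07 in CpG-B. The arrays of both groups were interleaved, and the nearest reading was -0.21 ± 0.24 (or 3.11; adjusted p = 0.906). Ifna12 read -0.17 ± 0.23 (or 3.15), and the largest in size was Ifna14 at -0.58 ± 0.29 (or 2.75; adjusted p = 0.692).

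In LIF against medium, 0 of 10 members were called by limma (0.731% of all probe sets) and 1 had an unadjusted p under 0.05 (10.3% of all). Ifnb1 had leading values of 1.49, 1.97 and 1.66 in LIF, against 1.04 and 1.19 in medium. All LIF arrays stood above both medium arrays by this reading, which was 0.60 ± 0.27 (or -2.72; adjusted p = 0.433). The other members read between -0.30 and 0.43, with Ifna4 at -0.30 ± 0.36 (or 3.02) and Ifnab at 0.43 ± 0.26 (or -2.89).

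**Figure D4:**
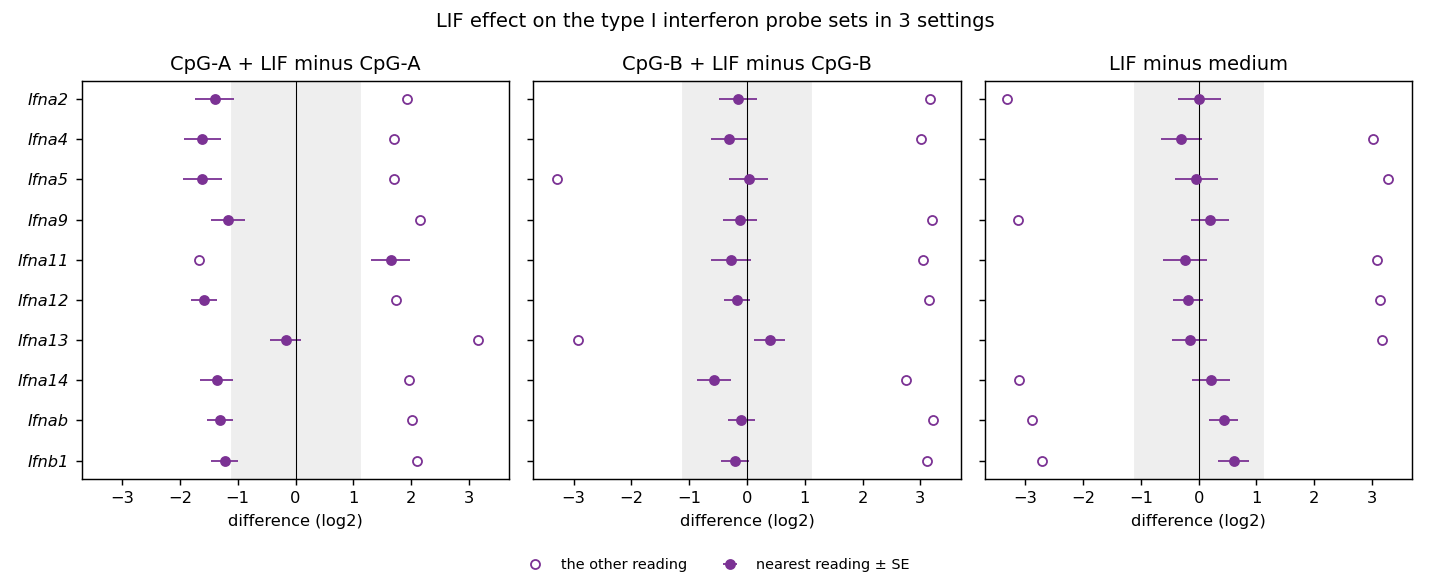
Difference made by LIF in the 3 settings (horizontal axis, log2; CpG-A + LIF minus CpG-A, CpG-B + LIF minus CpG-B and LIF minus medium). Filled points are nearest readings with their SE, open points the other readings, and the grey band marks sizes under the direction limit of 1.11. In the first panel 9 of 10 filled points lie outside the band, and in the other panels 0 do (0.103% and 0.524% of all probe sets).

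The differences between the LIF effects were tested as interactions. None was called for a member: 0 of 10 for CpG-A against medium (0.0421% of all probe sets), 0 of 10 for CpG-B against medium (0.108%) and 0 of 10 for CpG-A against CpG-B (0%). At an unadjusted p under 0.05 the counts were 9 of 10 (7.12% of all), 1 of 10 (9.89%) and 8 of 10 (5.11%). An interaction takes the difference of 2 nearest readings, so its size has no settled meaning for the 9 members past the limit. For Ifnb1 the LIF effect with CpG-A minus that in medium came to -1.83 ± 0.36 (adjusted p = 0.109), and for Ifna12 the LIF effect with CpG-A minus that with CpG-B came to -1.41 ± 0.32 (adjusted p = 0.670). That LIF acts differently on these genes with CpG-A than with CpG-B or in medium was thus not called. The 3 LIF comparisons use different arrays, whereas both interactions with medium rest on the same 3 LIF and 2 medium arrays. The interactions of CpG-A with medium and with CpG-B share all arrays of CpG-A and CpG-A + LIF, so their counts are not separate observations.

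The spread within groups was wide for these genes. The moderated SD of the members was 0.28 to 0.416 on the log2 scale, against a median of 0.189 over all probe sets (5th to 95th percentile 0.141 to 0.316), and 7 of 10 members lay above the 95th percentile. The range over the 3 CpG-A + LIF arrays had a median of 1.30 over the members and 0.302 over all probe sets, whereas for CpG-B + LIF it was 0.377 over the members and 0.293 over all. Replicate 2 of CpG-A + LIF lay below its group mean in 10 of 10 members, by a median of -0.63, and replicate 2 of CpG-A did so in 10 of 10, by a median of -0.35. Over all probe sets the median size of the deviation of these 2 arrays was 0.111 and 0.115, close to that of the other arrays. In Ifna4 and Ifna11 the CpG-A + LIF arrays spanned 1.80 and 2.05, more than 1.66, so that their order around the group mean itself depends on the replicate between them. Without CpG-A + LIF replicate 3, Ifna11 read 0.22 against LIF, while it read -1.40 with all arrays. In CpG-A + LIF against CpG-A, 0 members were called by limma without replicate 2 of CpG-A + LIF, and 1 was called without replicate 2 of CpG-A.

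CpG-A and CpG-B were compared to see how the classes of CpG differ for these genes. In CpG-A against CpG-B, 4 of 10 members were called, against 12.9% of all probe sets. Ifnb1 had leading values of 1.68, 1.29 and 1.71 in CpG-A, against 6.53, 7.83 and 1.07 in CpG-B. The CpG-A arrays lay together, all beyond the CpG-B arrays, of which replicate 3 came nearest. The nearest reading of Ifnb1 was 0.92 ± 0.24 (or -2.40; adjusted p = 0.0133), and the call was lost without CpG-A replicate 1, CpG-A replicate 3 or CpG-B replicate 1 (adjusted p over all settings 0.00204 to 0.0786).

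Ifnab had leading values of 1.59, 1.46 and 2.27 in CpG-A, against 3.57, 3.23 and 3.08 in CpG-B. The groups did not overlap, and the nearest reading was -0.92 ± 0.23 (or 2.40; adjusted p = 0.0121). This call was lost without CpG-A replicate 1, CpG-A replicate 2 or CpG-B replicate 1 (adjusted p over all settings 0.00159 to 0.0591). Ifna12, with CpG-B values of 6.59, 5.32 and 4.84, read -1.14 ± 0.23 or 2.18 (adjusted p = 0.00226) and was called in all 24 alternative settings. Ifna2, with CpG-B values of 2.15, 3.87 and 5.17, read -1.27 ± 0.33 or 2.05 (adjusted p = 0.0147), and its call was lost without CpG-A replicate 2, CpG-B replicate 2 or CpG-B replicate 3, and when all arrays were unfolded at the widest gap (adjusted p over all settings 0.00408 to 0.895). The other 6 members were not called, with nearest readings between -0.40 for Ifna4 and 0.61 for Ifna13.

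In CpG-A + LIF against CpG-B + LIF, 6 of 10 members were called, against 16.9% of all probe sets. Ifna12 had leading values of 8.10, 7.82 and 9.28 in CpG-A + LIF, against 4.41, 4.40 and 6.12 in CpG-B + LIF. All CpG-A + LIF arrays lay above the CpG-B + LIF arrays by the nearest reading of 0.77 ± 0.23 (or -2.55; adjusted p = 0.0263). That call was lost without CpG-A + LIF replicate 1 or 3 and without CpG-B + LIF replicate 1 or 2 (adjusted p over all settings 0.0089 to 0.103). The other called members had no settled direction: Ifna4 at 1.62 or -1.70, Ifna5 at -1.49 or 1.83, Ifna9 at -1.21 or 2.12, Ifna11 at -1.39 or 1.93 and Ifnab at 1.20 or -2.12. Without CpG-A + LIF replicate 3 the call of Ifna4 was lost, and Ifna11 read 0.23. The comparisons of CpG-A with CpG-B in the presence and in the absence of LIF share no arrays, and Ifna12 and Ifnab were called in both, with nearest readings of opposite sign. In each gene 1 of the 2 nearest readings is past the limit: that of Ifna12 without LIF (-1.14 or 2.18) and that of Ifnab with LIF. The opposite signs therefore do not show a change of direction.

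**Figure D5:**
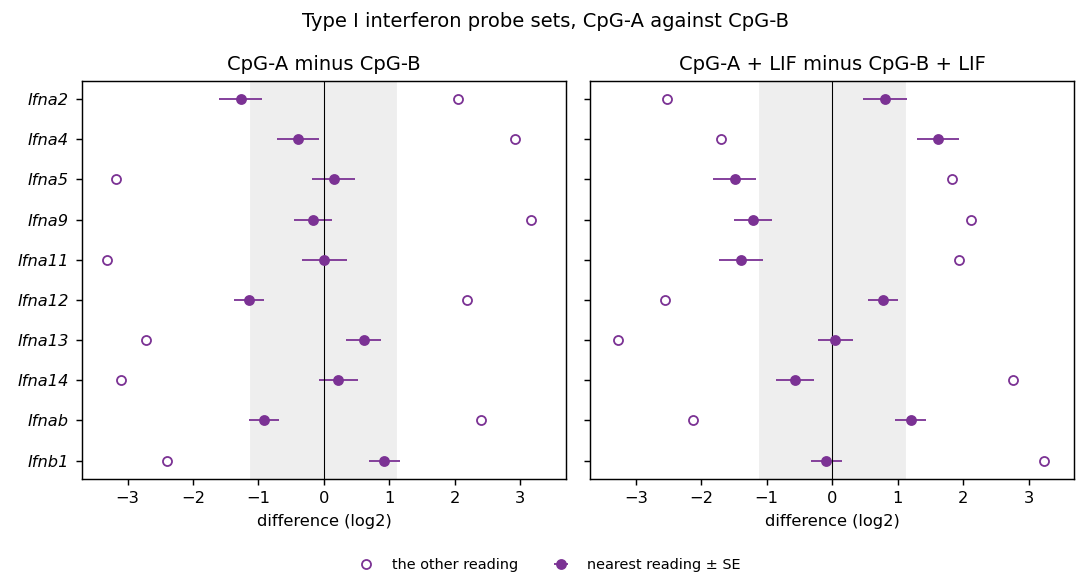
Differences CpG-A minus CpG-B (left) and CpG-A + LIF minus CpG-B + LIF (right) for the 10 genes (horizontal axis, log2). Filled points are nearest readings with their SE, open points the other readings, and the grey band marks sizes under the direction limit of 1.11. The filled points of Ifna12 and Ifnab lie left of 0 in the left panel and right of 0 in the right panel. For each gene 1 of these filled points lies outside the band, so its sign is not settled.

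Against LIF alone, CpG-A + LIF gave 8 called members of 10, against 17.4% of all probe sets, and CpG-B + LIF gave 1 of 10, against 25.3%. These comparisons share the 3 LIF arrays. Ifnb1 was called in each, at -1.35 ± 0.24 or 1.97 for CpG-A + LIF (adjusted p = 0.000465) and at -1.26 ± 0.24 or 2.06 for CpG-B + LIF (adjusted p = 0.00058), and kept both calls in all 24 alternative settings. Its leading values were 8.92, 4.17 and 7.83 in CpG-A + LIF and 8.32, 6.77 and 6.24 in CpG-B + LIF, against 1.49, 1.97 and 1.66 in LIF. The LIF arrays lay apart from all arrays of both CpG groups. In CpG-A + LIF the nearest readings within the limit were 0.85 ± 0.23 for Ifna12 (or -2.47; adjusted p = 0.0137) and -1.06 ± 0.29 for Ifna9 (or 2.26; adjusted p = 0.0155). The call of Ifna12 was lost without CpG-A + LIF replicate 3 or LIF replicate 1. That of Ifna9 was lost without CpG-A + LIF replicate 2 or 3 or LIF replicate 1, and with the compared groups alone. Those without a settled direction were Ifnb1, Ifna4 (-1.50 or 1.82), Ifna5 (-1.38 or 1.94), Ifna11 (-1.40 or 1.92), Ifna14 (-1.14 or 2.18) and Ifnab (1.14 or -2.18). Of the 24 alternative settings, the call held in 22 for Ifna4, 23 for Ifna5, 21 for Ifna11, 22 for Ifna14 and 24 for Ifnab. Ifna2 (0.92 ± 0.33 or -2.40, adjusted p = 0.0669) and Ifna13 (0.49 ± 0.27 or -2.84, adjusted p = 0.274) were not called.

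Against medium, CpG-A gave 1 called member of 10 (16.8% of all probe sets) and CpG-B gave 0 of 10 by limma (18.9%). At an unadjusted p under 0.05 the counts were 2 of 10 for CpG-A (26.8% of all) and 0 of 10 for CpG-B (29.3%). These comparisons share the 2 medium arrays. Ifna12 had leading values of 3.71, 1.88 and 2.25 in CpG-A, against 5.37 and 5.22 in medium. The medium arrays agreed closely, and the CpG-A arrays lay apart from them at a nearest reading of -1.08 ± 0.26 (or 2.24; adjusted p = 0.00587). Without medium replicate 1 the call of Ifna12 was lost (adjusted p = 0.0523). Ifnb1 read 0.48 ± 0.27 (or -2.85) with CpG-A and -0.45 ± 0.27 (or 2.87) with CpG-B. Ifna4 read -0.19 ± 0.36 (or 3.13) with CpG-A and 0.21 ± 0.36 (or -3.12) with CpG-B. For readings this close to 0 the other reading is close to a 10-fold change, so the readings of these members show neither a lack of response nor a strong one for CpG alone.

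The nearest readings cannot all be the true ones, which can be seen by following a gene around the groups. Going from medium to CpG-A + LIF through CpG-A, the nearest readings of Ifna12 add up to -2.66, while through LIF they add up to 0.66. The sums differ by 3.32, so at least 1 of the 4 nearest readings of Ifna12 is off by a factor of 10. The same held for Ifna2 (-2.38 and 0.94), Ifna11 (1.69 and -1.64) and Ifnab (-1.75 and 1.57), and thus for 4 of 10 members, while 1.41% of all probe sets failed to add up in this way. The corresponding cycle with CpG-B added up in all 10 members, and 1.87% of all probe sets failed there. Over all 17 arrays, 9 of 10 members spanned more than 1.66 on the log2 scale even when each lost decimal place was chosen to bring the arrays as close as possible. Of all probe sets, 87.1% fitted within that range.

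Some probe sets are annotated to several genes of the family and were kept out of the members. Of these, 3 include member symbols, with 6, 13 and 12 symbols each. In CpG-A + LIF against CpG-A they read -1.29 ± 0.23 (or 2.04), -1.37 ± 0.29 (or 1.95) and -1.26 ± 0.27 (or 2.07), with adjusted p of 0.116, 0.157 and 0.157 over all 24680 probe sets. These readings lie in the range of the 9 members past the limit. In CpG-A against medium the same probe sets read 0.84 ± 0.26 (or -2.48; adjusted p = 0.0319), 1.41 ± 0.32 (or -1.92; adjusted p = 0.00562) and -0.46 ± 0.30 (or 2.86; adjusted p = 0.374). In CpG-B against medium they read 0.08, -0.22 and -0.03, and 0 of 3 were called by limma. For CpG-A + LIF against CpG-A, the readings of other interferon genes with a probe set of their own were smaller in size than those of the 9 members. Ifna16, an alpha gene of the same cluster, read -0.00 ± 0.19, and Ifne, the epithelial interferon, -0.01 ± 0.13. Ifnl2, a type III interferon, read -0.44 ± 0.22, Ifng, interferon gamma, 0.49 ± 0.30, and Ifnk, interferon kappa, 0.28 ± 0.25. Of these 5 genes 0 were called by limma (0.00468% of all probe sets), and 0 had an unadjusted p under 0.05 (6.06% of all). In CpG-A against medium Ifnl2 was called at 1.06 ± 0.25 (or -2.26; adjusted p = 0.00551). A probe set annotated to both Ifnl3 and Ifnl2 read -1.38 ± 0.30 or 1.94 there (limma adjusted p = 0.00346 over all 24680 probe sets), without a settled direction.

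The induction pathway (18 of 23 listed genes measured, from TLR9 to the transcription factors) was followed in the same comparisons. With LIF added to CpG-A 0 of 18 genes were called (0.00468% of all probe sets), with a median reading of -0.16. Of these genes 3 had an unadjusted p under 0.05 (6.06% of all). Tlr9, the receptor for CpG DNA, read -0.27 ± 0.11 (or 3.05; adjusted p = 0.741), and Spib, an Ets family regulator expressed in these cells, -0.36 ± 0.15 (or 2.96; adjusted p = 0.734). Cd36, a scavenger receptor, read 0.99 ± 0.33 (or -2.33; adjusted p = 0.529). In CpG-A against CpG-B 12 of 18 were called (12.9% of all probe sets), 11 with a nearest reading above 0 within the limit and 1 without a settled direction. Tcf4, which sets the identity of these cells, read 1.03 ± 0.11 higher (or -2.29; adjusted p = 1.51e-05), Pacsin1, an adaptor needed for their interferon response, 1.07 ± 0.15 higher (or -2.26), and Spib 1.00 ± 0.15 higher (or -2.32). Tcf4, Pacsin1 and Spib are also among the 10 measured markers of plasmacytoid dendritic cells. Of those markers 6 were called in CpG-A against CpG-B (12.9% of all), and 9 of 10 nearest readings were above 0 (median 0.605). Against medium, CpG-A gave 6 called genes of 18 (16.8% of all probe sets), 4 higher and 2 lower, among them Tlr9 at 0.93 ± 0.13 (or -2.39), Tlr7 at 0.94 ± 0.16 (or -2.38) and the adaptor Myd88 at 0.67 ± 0.16 (or -2.65). With CpG-B against medium 8 of 18 were called (18.9% of all), 1 higher, 4 lower and 3 without a settled direction, among them Irf7 at -1.45 or 1.87. In LIF against medium Myd88 alone was called (0.731% of all), at 0.85 ± 0.16 (or -2.48; adjusted p = 0.0183).

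Of the interferon receptor and ISGF3 genes, 6 of 7 were measured. When LIF was added to CpG-A 0 of 6 were called (0.00468% of all probe sets). Of the 6 genes 1 had an unadjusted p under 0.05 (6.06% of all). In CpG-A against CpG-B 4 of 6 were called, all higher (12.9% of all probe sets called), while all 6 nearest readings were above 0. Stat2, part of ISGF3, read -0.29 ± 0.13 (or 3.03; adjusted p = 0.765) in CpG-A + LIF against CpG-A. In CpG-A against CpG-B Stat2 read 0.85 ± 0.13 (or -2.47; adjusted p = 0.000158), Irf9, its DNA-binding partner, 0.62 ± 0.16 (or -2.70; adjusted p = 0.0109), and the receptor kinase Tyk2 0.55 ± 0.15 (or -2.77; adjusted p = 0.0211).

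Of the genes that restrain the response, all 12 were measured. For LIF added to CpG-A 0 of 12 were called (0.00468% of all probe sets). At an unadjusted p under 0.05 there was 1 of 12 (6.06% of all). Usp18, which blocks signalling at the interferon receptor, read -0.33 ± 0.13 (or 2.99; adjusted p = 0.725) in that comparison. In LIF against medium 2 of 12 were called (0.731% of all probe sets) without a settled direction: Socs3, the feedback inhibitor of gp130 signalling, at -1.49 or 1.83 (adjusted p = 0.000976) and Id2, an inhibitor of Tcf4, at 1.24 or -2.08 (adjusted p = 0.00324). In CpG-A against CpG-B 6 of 12 were called (12.9% of all), 4 higher and 2 without a settled direction. Siglech, an inhibitory receptor that was part of the sorting gate, read 1.34 or -1.98, and Lag3, an inhibitory receptor of activated cells, 1.17 or -2.15.

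Interferon-stimulated genes served as a readout of interferon action, and 13 of 15 were measured. In CpG-A + LIF against CpG-A 0 of 13 were called (0.00468% of all probe sets). An unadjusted p under 0.05 was found in 0 of 13 (6.06% of all). All 13 nearest readings were below 0, from -0.40 to -0.01, with a median of -0.24 against 0.004 over all probe sets. In CpG-B + LIF against CpG-B 12 of 13 were below 0, with a median of -0.34 against 0.004 over all probe sets. There 0 were called by limma (0.0609% of all), while 5 had an unadjusted p under 0.05 (7.58% of all). The smallest adjusted p in CpG-A + LIF against CpG-A was that of Mx2, a dynamin-like antiviral protein, at -0.37 ± 0.19 (or 2.95; adjusted p = 0.846). In CpG-A against CpG-B 10 of 13 were called (12.9% of all probe sets), 9 of them higher and 1 without a settled direction, and all 13 nearest readings were above 0. Mx1 read 0.77 ± 0.14 (or -2.56; adjusted p = 0.00114), Oasl2, an antiviral sensor of RNA, 0.87 ± 0.16 (or -2.45; adjusted p = 0.00138), and Mx2 1.00 ± 0.19 (or -2.33; adjusted p = 0.00179). When both CpG groups had LIF, 10 of 13 were called in CpG-A + LIF against CpG-B + LIF (16.9% of all), 7 higher and 3 without a settled direction, with Mx1 at 1.03 ± 0.14 (or -2.30). CpG-A against medium gave 8 called of 13 (16.8% of all), 2 higher, 1 lower and 5 without a settled direction. There 6 of 13 nearest readings were above 0, with a median of -0.02, as over all probe sets. CpG-B against medium gave 10 called of 13 (18.9% of all), 4 higher, 5 lower and 1 without a settled direction. There 7 of 13 were above 0, with a median of 0.05 against -0.05 over all probe sets. In LIF against medium 11 of 13 nearest readings were above 0, with a median of 0.39 against -0.02 over all probe sets. The 11 include Oas2, which lies at the edge of the nearest readings, where the sign is not settled. Of the 13 genes 8 had an unadjusted p under 0.05 (10.3% of all), and medium has only 2 arrays. Of these, 2 were called (0.731% of all): Cxcl10, an interferon-induced chemokine, read lower at -1.06 ± 0.23 (or 2.26; adjusted p = 0.0343), and Oas2 read 1.66 or -1.66 (adjusted p = 0.028).

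Markers of other cell types that the sort could hold were read beside these results. Among CpG-A cultures with and without LIF, 0 were called of 10 markers of plasmacytoid dendritic cells, 6 of B cells and 5 of conventional dendritic cells. Likewise 0 were called of 6 markers of monocytes and macrophages, 5 of neutrophils, 4 of T and NK cells and 1 of erythroid cells. Over all probe sets 0.00468% were called in this comparison, so 0 calls do not show that the markers were unchanged. Nearest readings were above 0 for 6 of 6 monocyte and macrophage markers (median 0.41) and 5 of 5 neutrophil markers (median 0.46), against a median of 0.004 over all probe sets. At an unadjusted p under 0.05 there were 2 monocyte and macrophage markers and 0 neutrophil markers (6.06% of all probe sets). Monocyte and macrophage markers also read above 0 in 5 of 6 when LIF was added to CpG-B (median 0.20). In LIF against medium they did so in 6 of 6 (median 0.39), and 1 was called (0.731% of all probe sets). Neutrophil markers did so in 4 of 5 when LIF was added to CpG-B (median 0.19) and in 4 of 5 in LIF against medium (median 0.26). In both comparisons 0 of the 10 interferon genes were called by limma (0.0609% and 0.731% of all probe sets). A missing call does not show that a gene is unchanged. The part of other cells in the interferon readings was not tested.

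The pattern of a gene over the 6 groups was compared with that of all other probe sets by how constant the difference between their group means stayed (mean resultant length over the 10-fold period, 1 for a constant difference, over 6 groups). For Ifna12, the member called in the most comparisons (5 of 9), the closest was another member, Ifna2, at 0.984, followed by H3c15, a histone gene, at 0.937 and Cdhr5, a cadherin-related gene, at 0.908. For Ifnb1 the closest were Gm9733 at 0.966, Tmem231 at 0.906 and Aph1c at 0.904. The closest member to Ifnb1 was Ifna14 at 0.809, in place 63. Such likeness describes 6 group means whose powers of 10 are unknown.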

How the data were processed

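Each of the 17 samples is 1 array of biotin-labelled total RNA. The deposited values are linear intensities made by the authors with RMA (background correction, normalization between arrays and probe summary), per the submitters' processing notes. No version or level of summarization is stated there. All but 1 of 419560 cells lack a decimal mark, and 90.0% have 10 digits, so each intensity is known up to a power of 10 and its log2 up to multiples of 3.32.

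Groups came from the sample labels, and probe sets were named by the platform annotation: 21354 have 1 symbol (19751 genes), 1275 several and 2051 none. No pair of the 136 pairs of arrays was identical. Arrays were unfolded the shortest way to the circular mean of their group, and limma 3.58.1 in R 4.3.3 was fitted over all 17 arrays with 1 coefficient per group (11 residual degrees of freedom). Each of 9 differences was folded to its nearest reading, 3 interactions were differences of nearest readings, and p-values were adjusted by Benjamini-Hochberg over all 21354 probe sets. Probe sets could not be filtered on level. The number of arrays limits the precision.

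The members and gene lists were chosen with earlier results of these data known. All members are named; of each list the counts are given and at most the 3 genes with the smallest adjusted p per comparison. Promoters came from RefSeq and were searched and aligned in Python 3.11.15 with Biopython 1.88. Alternatives were the replicate number as a block, all probe sets, 1 probe set per gene, unfolding at the widest gap, centring, robust moderation, the compared groups alone, and each array left out. The labels do not say that a replicate number marks a shared animal or day, so the numbers were not taken as pairs. Deviations of same-numbered arrays correlated at -0.078 to 0.242 over 40 pairs, 8 of them over 0.1. Among arrays of other groups, the best-correlated one had the same number for 14 of 17 arrays, so a pairing is not excluded.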

Additional observations from a re-analysis of the deposited data

How the results depend on the processing

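Of 2880 recomputed readings of the members, 2707 kept their sign and their side of the threshold, 43 lost a call, 13 gained one and 117 changed sign, 107 of them called in neither setting. The count of called members in CpG-A + LIF against CpG-A (1) was 0 with the replicate number as a replicate block, with all probe sets, with centred arrays and with the compared groups alone, and 2 with unfolding at the widest gap. With that unfolding it was 5 in CpG-A + LIF against LIF (8), 3 in CpG-A + LIF against CpG-B + LIF (6), 2 in the interaction of CpG-A with medium (0) and 1 in that of CpG-A with CpG-B (0). With the compared groups alone it was 5 in CpG-A + LIF against LIF and 2 in CpG-A against medium (1).

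With 1 array left out the counts ranged from 0 to 1 in CpG-A + LIF against CpG-A, 4 to 9 in CpG-A + LIF against LIF, 3 to 7 in CpG-A + LIF against CpG-B + LIF, 2 to 4 in CpG-A against CpG-B, 1 to 2 in CpG-A against medium, 0 to 1 in CpG-B against medium and 0 to 1 in the interaction of CpG-A with medium. CpG-B + LIF against LIF gave 1 and the remaining comparisons 0 each time. Where this leaves a group with 1 array, that array is assumed to vary like the others.

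Unfolding at the widest gap turned the sign of Ifna12 (1.74) and Ifnab (2.02) and of the uncalled Ifna2 (0.82), Ifna5 (0.60) and Ifna11 (-0.57) in CpG-A + LIF against CpG-A, of Ifna5 against LIF (0.83), of Ifna4 (-0.60) and Ifna5 (0.73) in CpG-A + LIF against CpG-B + LIF, and of the interactions of Ifna12 with medium (1.93) and Ifnab with CpG-B (2.12). With 1 array left out, CpG-A + LIF against LIF ranged from -1.89 to 0.036 for Ifna4 and from -1.89 to 0.215 for Ifna11, and CpG-A + LIF against CpG-B + LIF from -1.88 to 0.225 for Ifna11. In these 3 the sign turned only without CpG-A + LIF replicate 3. The cause was not tested.

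The replicate block changed no other call of a member. Of 17 arrays, 14 correlated best with an array of their own number, a hint from the data and not from the design. Over all probe sets the block gave 16 calls against 9 in the interaction of CpG-A with medium and 52 against 23 in that of CpG-B with medium. The count in LIF against medium fell to 11 with the compared groups alone and to 10, 30 and 82 without medium replicate 3, medium replicate 1 and LIF replicate 1, against 156. In CpG-B + LIF against CpG-B it was 0 with the compared groups alone, 3 with all probe sets, 5 with the widest gap and 1 to 10 with 1 array left out, against 13. Left-out arrays gave 0 to 3 calls in CpG-A + LIF against CpG-A, 1 to 31 in the interaction of CpG-A with medium and 3 to 34 in that of CpG-B with medium. CpG-A against medium gave 2320 and 2381 without medium replicate 1 and 3, against 3596, and CpG-B against medium 2602 without medium replicate 3, against 4039. In CpG-A + LIF against CpG-A the widest gap gave 8 calls, against 1, and in the interaction of CpG-A with medium 40, against 9. Signal over background could not be judged, since it needs the lost powers of 10.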
